A study of Rattus norvegicus with 12 samples.

Results

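The comparison described here is that of serum microRNAs in rats given caffeine alone with those in rats given the vehicle. It rests on 6 of the 12 samples of the series, 3 from the caffeine group (CAF) and 3 from the control group, chosen by their group labels and not by any measured value. Of 752 microRNA names in the table, the 479 that were above 0 in at least 3 of the 12 samples are described, and the 366 of these with a mean of at least 80 FPKM were tested. All animals were male Sprague-Dawley rats (Jcl:SD) aged 7 weeks and each received its drugs by mouth on a single occasion. Controls received sterile distilled water, the vehicle of every drug. The caffeine group received 180 mg/kg caffeine. A group given 200 mg/kg dextromethorphan hydrobromide monohydrate (DEX) and a group given both drugs (CAF + DEX), with caffeine 1 hour ahead, enter the fit through its shared estimate of spread, which bears on the calls, and are used at the end to set the caffeine difference beside its counterpart. The design text gives 5 rats a group, of which 3 samples a group were analysed here. Blood was drawn under anesthesia 1 hour after dextromethorphan, and the labels do not say how long after caffeine the animals without dextromethorphan were bled. No label ties a sample to its own rat, so the p-values below speak for the spread among these samples only.

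MicroRNAs are RNAs of about the size listed below that guide Argonaute proteins to messenger RNAs, mainly through the seed, bases 2 to 8 from the 5′ end. Tissues release them into the blood inside vesicles, in protein complexes or from damaged cells, and several are made almost only by a single tissue: miR-1, miR-206 and miR-133a by striated muscle, miR-122 by hepatocytes, miR-451 by red cells. Caffeine blocks adenosine receptors and, at high concentrations, opens the calcium release channels of the sarcoplasmic reticulum in muscle. Serum is a mixture, so more RNA released per cell and more cells releasing it cannot be told apart.

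Values are FPKM, reads scaled by the length of the mature microRNA and by the library's reads on all listed microRNAs, so a value is a share of the microRNA pool and not an amount per volume of serum. Reads on listed microRNAs, recovered from the table, came to 1304868 to 2625593 in the control libraries and 1504963 to 1842796 in the caffeine libraries. Libraries are named here as the table's columns name them: ctrl1, ctrl3 and ctrl5, and CAF3, CAF4 and CAF5. The control library ctrl5 stood apart from the others of its group, at -7.24 on the first principal component where ctrl1 and ctrl3 lay at -13.9 and -13.7 and the caffeine libraries at 1.95 to 5.33. It was also the control of fewest reads. Whether its position came from the animal or the preparation was not tested.

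After caffeine, 25 of the 366 tested microRNAs rose and 4 fell (limma on log2(FPKM + 40), two-sided, Benjamini-Hochberg adjusted p under 0.05), or 7.92% in all, 6.83% up and 1.09% down. The largest fitted changes were rises of 6.36-fold to 11.7-fold in 4 of the 5 tested microRNAs of striated muscle. The fit understates changes of low microRNAs, and by summed reads 2 of these, miR-494-3p at 9.67 times and miR-802-5p at 9.53 times their control share, came within that range. The liver microRNA miR-122-5p, the lymphocyte microRNA miR-150-5p, a group from the imprinted Dlk1-Dio3 locus and connective-tissue miR-199a-3p also rose. So did 3 of 21 tested on a list of endothelium and smooth muscle, where miR-126a-3p, miR-143-3p and miR-145-5p did not pass. None of the 21 passed with median-of-ratios or quantile scaling. The 4 that fell were miR-92a-3p, miR-18a-3p and miR-20a-5p, which lie together in the miR-17-92 cluster, and miR-181d-5p. In 28 of the 29 the caffeine and control libraries did not overlap. The exception was miR-20a-5p. Over all tested microRNAs, the 3 caffeine libraries lay wholly above the controls in 95 (26%) and wholly below in 24 (6.56%).

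The mature sequences that the results turn on are given first, with the seed in capitals. They were matched by name to RefSeq (GRCr8), which held 27 of the 29 that passed and 338 of the 366 tested. miR-150-5p and miR-802-5p had no entry. The first set holds the 4 muscle microRNAs, which had the smallest p-values, and miR-122-5p, the most abundant microRNA to rise.
miR-1-3p: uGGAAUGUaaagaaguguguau
miR-1b: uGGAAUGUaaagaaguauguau
miR-206-3p: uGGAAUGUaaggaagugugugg
miR-133a-3p: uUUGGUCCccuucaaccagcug
miR-122-5p: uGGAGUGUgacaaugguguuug

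Positions count from 1 at the 5′ end, with the base of the microRNA named first written first. miR-1-3p differs from miR-1b at 1 position (G17A) and from miR-206-3p at 3 (A11G, A21G, U22G), none of them in the seed. Reads of these 3 could therefore be shared between them where a read is short or carries an error. miR-122-5p differs from miR-1-3p at 11 positions, 1 of them in the seed (A5G).

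The second set shows 5 microRNAs that passed, each followed by a microRNA with the same seed that did not, picked after the values were known.
miR-20a-5p: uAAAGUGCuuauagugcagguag
miR-17-5p: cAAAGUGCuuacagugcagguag
miR-92a-3p: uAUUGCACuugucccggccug
miR-25-3p: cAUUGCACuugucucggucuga
miR-181d-5p: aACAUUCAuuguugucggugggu
miR-181a-5p: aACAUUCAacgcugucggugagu
miR-146a-5p: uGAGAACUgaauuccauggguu
miR-146b-5p: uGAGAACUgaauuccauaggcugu
miR-27b-3p: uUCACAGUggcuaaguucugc
miR-27a-3p: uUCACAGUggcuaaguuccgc

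The 27 sequences that passed carried 25 seeds. GGAAUGU was the only seed carried by more than 1 of them, and its 3 tested members, miR-1-3p, miR-1b and miR-206-3p, all rose. In 6 other seed groups, holding 15 further tested microRNAs, a single member passed. Within AAAGUGC, miR-20a-5p fell, while miR-17-5p, which differs from it at U1C and U12C, had a log2 difference of -0.73 ± 0.31 (SE, adjusted p = 0.158 by limma). Within AUUGCAC, miR-92a-3p fell, at -1.02 ± 0.29. Its seed partner miR-92b-3p had nearly the same difference, -1.06 ± 0.35, without passing (adjusted p = 0.0635 by limma), and miR-25-3p had 0.16 ± 0.24. Within ACAUUCA, miR-181d-5p fell and miR-181a-5p had a difference of 0.54 ± 0.30. miR-27b-3p rose and miR-27a-3p, which differs at U19C, had 0.17 ± 0.23. miR-146a-5p rose and miR-146b-5p had -0.11 ± 0.26. Beside miR-125b-5p, which rose by 1.49 on that scale, miR-125a-5p had 1.07 ± 0.43 and did not pass. Of the 15 partners, 11 had the sign of the member that passed, where 60.9% of all tested differences were positive. Some of the 11 lay near 0, such as miR-181b-5p at -0.01 and miR-20b-5p at -0.07. Others, such as miR-17-5p and miR-181c-5p, lie within 10 kb of the member that passed. These differences between members of a seed group were not tested. The base composition was close in all sets, with a median GC content of 47.6% among the 23 risen microRNAs with a sequence, 47.9% among the 4 that fell and 50% among all tested.

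**Figure D1:**
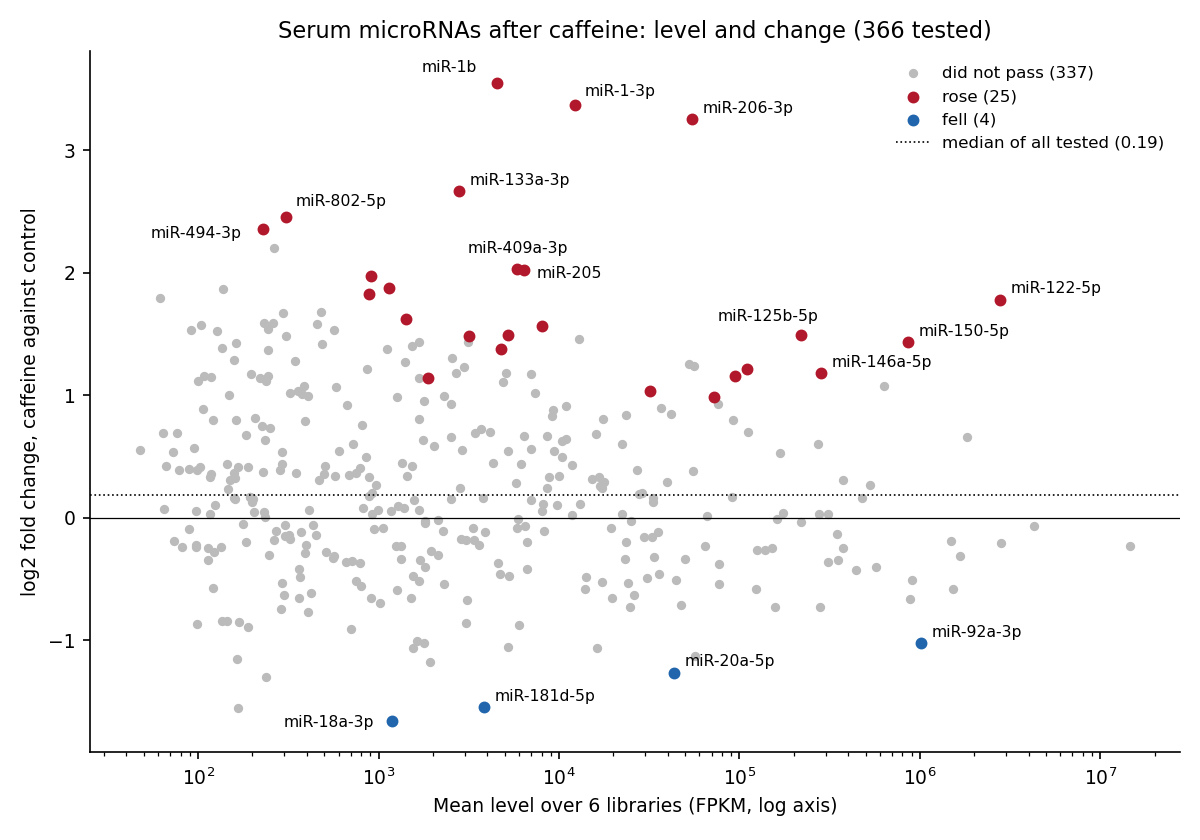
Each point is 1 of the 366 tested microRNAs, with its mean FPKM over the 6 libraries on a log axis and its log2 fold change, caffeine against control. Red points rose and blue points fell. The muscle microRNAs miR-1b, miR-1-3p and miR-206-3p lie above all others, miR-122-5p is the most abundant of those that rose, and the dotted line marks the median of all tested, 0.19.

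Among the muscle microRNAs, miR-206-3p, found in skeletal muscle and largely absent from heart, was the most abundant. It read 6221, 6721 and 20169 FPKM in ctrl1, ctrl3 and ctrl5 and 156286, 69854 and 67841 FPKM in CAF3, CAF4 and CAF5. The lowest caffeine library was thus well above the highest control, and CAF3 was the highest of all. The rise was 9.54-fold (95% interval 4.14 to 22.0, adjusted p = 0.00363 by limma).

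miR-1-3p, which promotes differentiation in skeletal and cardiac muscle, read 1577, 1108 and 3727 FPKM in the controls and 38350, 14923 and 13507 FPKM after caffeine. It rose 10.4-fold (4.51 to 23.8, adjusted p = 0.00363 by limma). miR-1b, its near copy, read 389, 346 and 1533 FPKM and then 13852, 4859 and 6152 FPKM, a rise of 11.7-fold (4.65 to 29.6). In all 3 microRNAs ctrl5 was the highest control and CAF3 the highest caffeine library, and neither group reached the other. miR-133a-3p, encoded 2453 bases from miR-1-3p on chromosome 18 and a regulator of myoblast proliferation, read 536, 577 and 941 FPKM in the controls. After caffeine it read 8279, 3141 and 3353 FPKM, a rise of 6.36-fold (3.34 to 12.1). Its recovered reads numbered 24.8, 33.3 and 27 in the controls and 280, 127 and 111 after caffeine, where fractions can arise from reads divided between places in the genome.

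Of the 16 names on the striated muscle list, 5 were tested and 4 rose, beside 6.83% of all tested. The fifth, miR-499-5p, carried in the gene of a slow and cardiac myosin, had 5, 7 and 1 reads in the controls and 1, 7 and 7 after caffeine, and its log2 difference was 0.36 ± 0.81. The cardiac miR-208a-5p was listed at 0 in all 3 controls, which allows a share of up to 4.97e-05% of their reads (3 counts, counting error only), and had 2, 0 and 1 reads in the caffeine libraries. miR-133b-3p had 2.33, 3.33 and 1 reads and then 5.33, 1.33 and 1. The list as a whole took 0.0325% ± 0.0223 of microRNA reads in the controls (SD, n = 3) and 0.294% ± 0.159 after caffeine. So the muscle share was higher in every caffeine library, while the heart-enriched names on the list were at or near the limit of detection in both groups. Leaving out any 1 of the 12 libraries kept the 4 calls. With a haemolysis index as a covariate miR-1b and miR-206-3p no longer passed, at an adjusted p of 0.0581 for each.

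**Figure D2:**
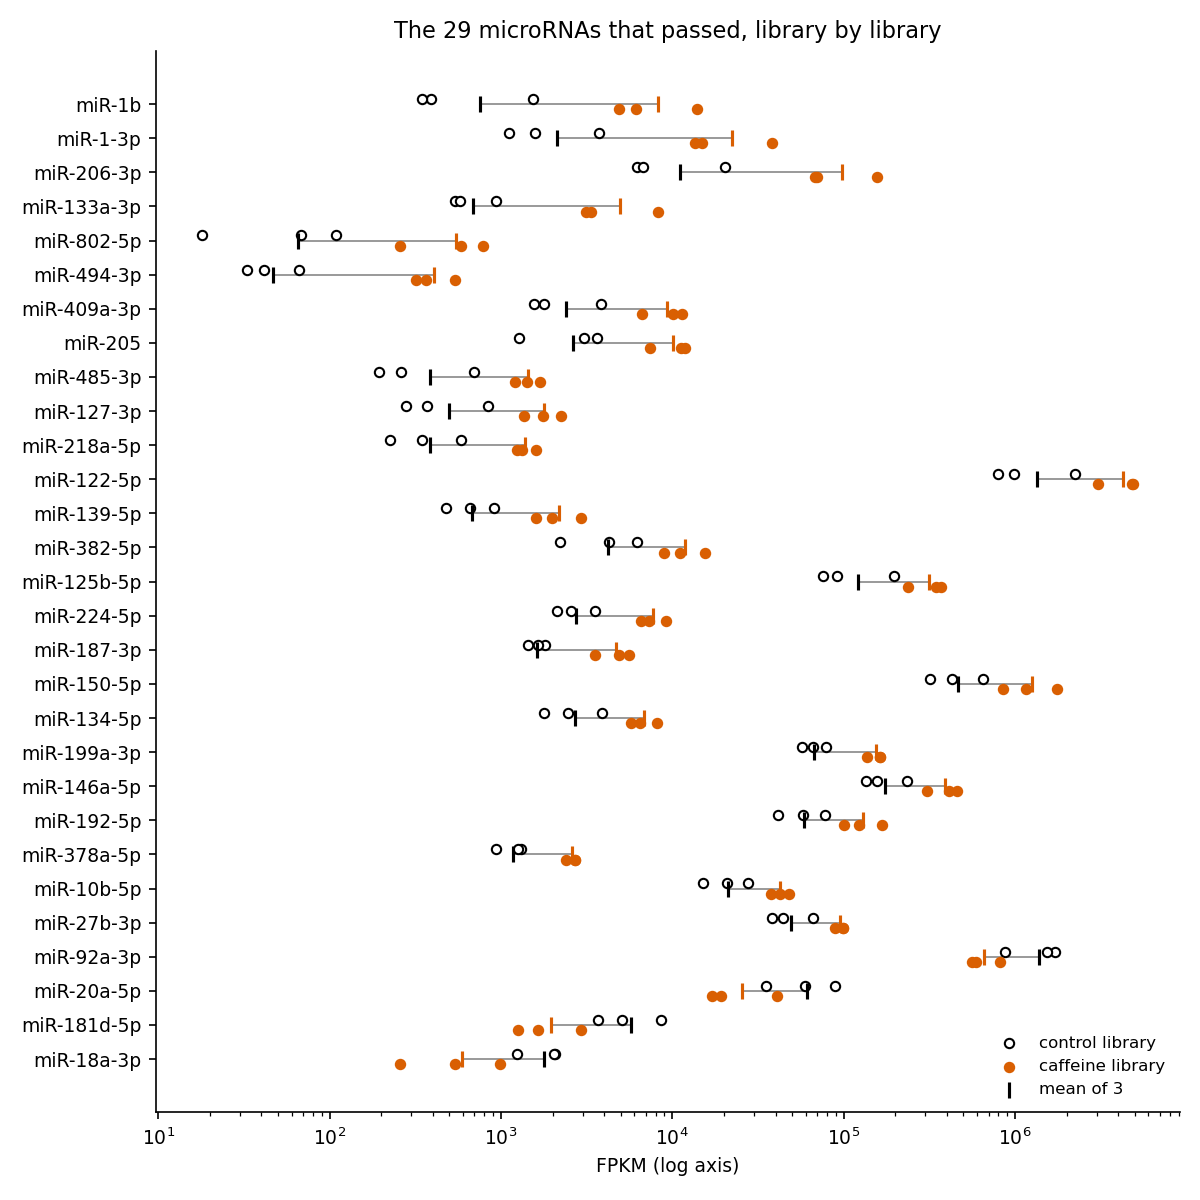
FPKM on a log axis of each of the 29 microRNAs that passed, ordered by log2 fold change. Open circles are the 3 control libraries, filled circles the 3 caffeine libraries, and ticks the group means. Circles of the 2 groups are apart in every row except miR-20a-5p, where CAF3 at 40822 FPKM lies above ctrl5 at 35153 FPKM.

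miR-122-5p, which hepatocytes make in great amount and which regulates cholesterol and lipid genes, read 983159, 794034 and 2248320 FPKM in the controls. It read 4789290, 3048660 and 4889600 FPKM after caffeine, so that every caffeine library lay above ctrl5, the highest control. Its share of microRNA reads was 2.95% ± 1.74 in the controls and 9.33% ± 2.28 after caffeine, and the rise was 3.44-fold (1.94 to 6.11, adjusted p = 0.0137 by limma). Its other arm, miR-122-3p, had a log2 difference of 0.995 ± 0.932 and did not pass.

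Of the other liver microRNAs 2 rose. miR-192-5p, shared by liver, gut and kidney, read 41518, 58068 and 77330 FPKM and then 122309, 100089 and 168269 FPKM, a rise of 2.23-fold (1.38 to 3.59, adjusted p = 0.0419 by limma). Its cluster partner miR-194-5p had 0.67 ± 0.35 on the log2 scale and did not pass. miR-802-5p, a liver and gut microRNA with roles in glucose metabolism, rose 5.50-fold on few reads, 3, 1 and 3 in the controls and 19, 10 and 25 after caffeine. By summed reads alone its share was 9.53 times as high (4.32 to 24.8, exact interval for counting error only). miR-148a-3p, abundant in hepatocytes and in blood cells, had -0.66 ± 0.28. Of 12 liver microRNAs tested, 3 rose and none fell, beside 6.83% and 1.09% of all tested. Wholly above the controls lay 6, beside 26% of all tested, and the median log2 difference was 0.71, against 0.19 over all tested.

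miR-150-5p, made by mature lymphocytes, read 318029, 430633 and 650815 FPKM in the controls and 1162740, 854347 and 1765540 FPKM after caffeine. No caffeine library fell within the controls, and the log2 difference was 1.43 ± 0.31 (adjusted p = 0.0137 by limma). miR-146a-5p, induced by NF-κB and a brake on Toll-like receptor signalling, read 156487, 135381 and 233374 FPKM and then 459613, 304367 and 413344 FPKM. It rose 2.27-fold (1.40 to 3.68, adjusted p = 0.0419 by limma).

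Of the 19 tested members of the leukocyte list these 2 rose, beside 6.83% of all tested. miR-181d-5p fell, 16 did not pass, and the median was -0.01 (-0.26 with median-of-ratios scaling). The myeloid miR-223-3p, one of the most abundant serum microRNAs, stood at -0.20 ± 0.22 (adjusted p = 0.619), and miR-142-5p, present in all blood cells, at 0.03. Others that did not pass had larger positive differences, among them miR-147 at 1.01 and miR-155-5p, induced in activated lymphocytes and macrophages, at 0.81. Of the list, 2 lay wholly above the controls and 4 wholly below, beside 26% and 6.56% of all tested.

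The Dlk1-Dio3 locus is an imprinted region, active on the maternal chromosome, whose microRNAs are expressed in embryo, brain, muscle and endocrine tissue. Its tested microRNAs lie on chromosome 6 between positions 133682975 and 133894062 of rn6, a span of 211 kb. Of 28 tested in that span, 27 are on the list used here, which leaves out miR-1188-5p. Of those 27, 6 rose, beside 6.83% of all tested: miR-409a-3p, miR-494-3p, miR-485-3p, miR-127-3p, miR-382-5p and miR-134-5p. miR-409a-3p (chromosome 6, 133893465 to 133893484) read 1782, 1562 and 3832 FPKM in the controls and 11371, 10093 and 6611 FPKM after caffeine, 4.08-fold higher (2.20 to 7.58, adjusted p = 0.0137 by limma). miR-382-5p read 4255, 2216 and 6235 FPKM and then 15594, 11124 and 9001 FPKM, 2.96-fold higher. For both, ctrl5 was the highest control and still below every caffeine library.

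miR-494-3p rested on 2 reads in each control and 13, 23 and 11 after caffeine, a fitted rise of 5.12-fold. By summed reads the ratio of shares was 9.67 (4.13 to 27.7, exact interval for counting error only). miR-127-3p, which lies antisense to the retrotransposon-like gene Rtl1, read 281, 372 and 836 FPKM and then 2245, 1751 and 1359 FPKM, 3.67-fold higher. miR-134-5p, known for restraining dendritic spine growth, rose 2.60-fold and miR-485-3p 3.93-fold.

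All 27 tested members of the Dlk1-Dio3 list had positive differences, from 0.07 for miR-323-3p to 2.35 for miR-494-3p, with a median of 1.40. Of them 18 lay wholly above the controls and none below, against 26% and 6.56% of all tested. Positive differences made up 60.9% of all tested. The median stayed between 1.11 and 1.37 under the 3 other scalings, where 2 to 4 members passed. The locus supplied little RNA, 0.0313% ± 0.0120 of reads in the controls and 0.0910% ± 0.0207 after caffeine.

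**Figure D3:**
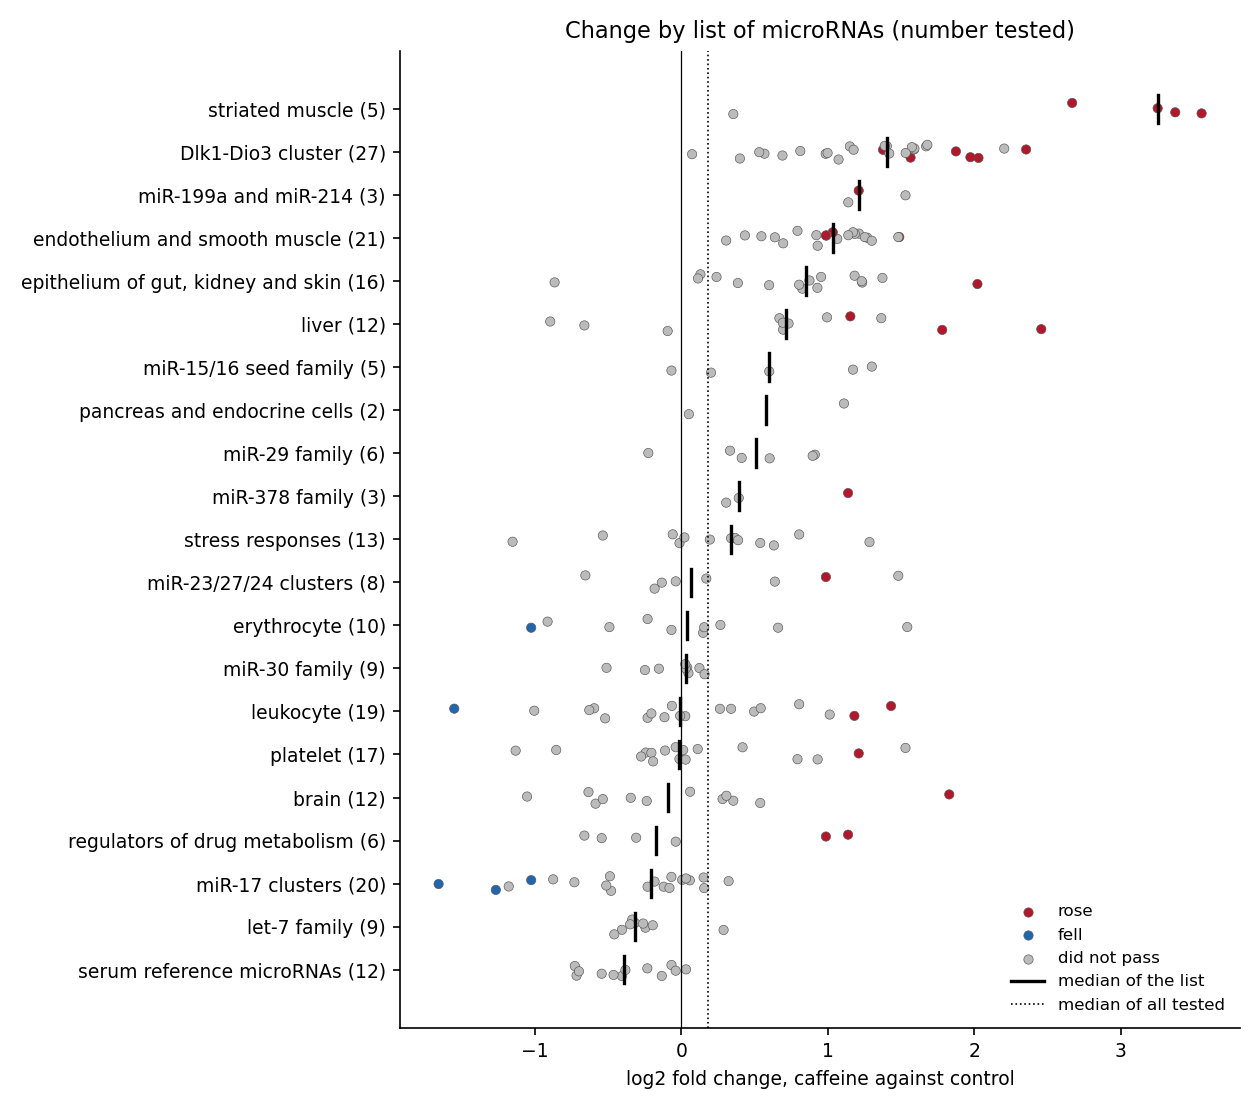
Log2 fold changes, caffeine against control, of the tested members of 21 lists (number tested in brackets), with the list median as a bar and the median of all tested as a dotted line. Striated muscle, with a median of 3.25, and the Dlk1-Dio3 cluster, with 1.40, have the highest medians, and the serum reference microRNAs the lowest, at -0.39. Lists overlap in part, and no test was made of a list.

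Among microRNAs of endothelium and smooth muscle, 3 of 21 tested rose, beside 6.83% of all tested: miR-125b-5p, miR-27b-3p and miR-10b-5p. miR-125b-5p, a regulator of differentiation encoded on chromosomes 8 and 11, read 75344, 91694 and 195910 FPKM in the controls and 235935, 367430 and 345372 FPKM after caffeine. It was 2.81-fold higher (1.62 to 4.86, adjusted p = 0.0308 by limma). miR-27b-3p, which represses several drug-metabolizing enzymes including CYP3A4 in human cells, read 44075, 38037 and 66138 FPKM and then 88614, 99123 and 98613 FPKM, 1.98-fold higher. miR-10b-5p, encoded in the HoxD cluster, was 2.05-fold higher.

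All 21 differences on that list were positive, with a median of 1.03, and 15 lay wholly above the controls. Over all tested, 60.9% were positive and 26% lay wholly above. miR-145-5p, the smooth muscle microRNA, read 23561, 30545 and 31787 FPKM in the controls and 31939, 99848 and 97422 FPKM after caffeine, so CAF3 was close to the controls. Its difference was 1.25 ± 0.54 and did not pass. Endothelial miR-126a-3p had 0.79 ± 0.48. miR-143-3p, the most abundant of the list, had 0.31 ± 0.56 (adjusted p = 0.782 by limma), the lowest of the 21. With median-of-ratios or quantile scaling none of the 21 passed, and the median was 0.78 or 0.77. Connective-tissue miR-199a-3p rose 2.32-fold, from 65879, 56740 and 78448 FPKM to 162980, 163059 and 137339 FPKM. Its neighbour miR-214-3p stood at 1.14, and all 3 tested members of the miR-199a and miR-214 list lay wholly above the controls.

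Of 16 epithelial microRNAs tested, 1 rose, beside 6.83% of all tested. That was miR-205, made by squamous and glandular epithelium. It read 3636, 1275 and 3032 FPKM in the controls and 11244, 11785 and 7425 FPKM after caffeine, a rise of 4.06-fold (1.99 to 8.28, adjusted p = 0.0226 by limma). Here ctrl1 and not ctrl5 was the highest control. The list's median was 0.85, and 7 lay wholly above the controls, beside 26% of all tested. With median-of-ratios or quantile scaling the median was 0.60 or 0.50, and with quantile scaling miR-205 no longer passed. miR-203a-3p, a microRNA of skin, had 1.24 ± 0.51 and did not pass.

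The remaining microRNAs that rose were on none of the tissue lists, except miR-218a-5p of the brain list. miR-187-3p read 1447, 1800 and 1637 FPKM and then 4903, 3552 and 5588 FPKM, 2.79-fold higher. miR-224-5p, encoded in an intron of a GABA receptor gene, was 2.81-fold higher and miR-139-5p 3.07-fold higher. miR-218a-5p, from the introns of the axon guidance genes Slit2 and Slit3, was 3.56-fold higher. It was the 1 of 12 tested brain microRNAs that rose, beside 6.83% of all tested. The median of the 12 was -0.09, and the most abundant of them, miR-128-3p, stood at -0.58 ± 0.27. miR-378a-5p, from an intron of the coactivator gene Ppargc1b, was 2.20-fold higher, and its far more abundant partner miR-378a-3p had 0.39 ± 0.29.

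Of the 4 that fell, miR-92a-3p was the most abundant. It read 1698200, 1544910 and 870769 FPKM in the controls and 821013, 562051 and 587790 FPKM after caffeine, 2.03-fold lower. The groups were separated by a narrow gap, between ctrl5 and CAF3. miR-20a-5p read 88811, 59448 and 35153 FPKM and then 40822, 17011 and 19154 FPKM, 2.40-fold lower (adjusted p = 0.0475 by limma). miR-18a-3p read 2059, 2031 and 1241 FPKM and then 990, 258 and 538 FPKM, 3.15-fold lower (adjusted p = 0.0423 by limma).

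These 3 come from the miR-17-92 cluster on chromosome 15, between positions 100179892 and 100180653 of rn6, a transcript driven by MYC in dividing cells. The reads of miR-92a-3p may also come from its second copy on chromosome X. Of 10 microRNAs tested at the chromosome 15 cluster, 8 had negative differences and 2 lay wholly below the controls. Over all tested, 60.9% were positive and 6.56% lay wholly below. miR-17-1-3p stood at -1.18 ± 0.48 and miR-18a-5p at -0.87 ± 0.33, neither passing. Of a related cluster, miR-93-5p stood at 0.03 ± 0.24 and miR-25-3p at 0.16 ± 0.24. miR-181d-5p, of chromosome 19, read 8575, 5075 and 3682 FPKM and then 2938, 1652 and 1257 FPKM, 2.93-fold lower (adjusted p = 0.0308 by limma). Its other arm, miR-181d-3p, stood at -0.52 and its neighbour miR-181c-5p at -0.59, neither passing.

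Of the 10 most abundant serum microRNAs, miR-122-5p rose, miR-92a-3p fell and 8 did not pass. Among the 8, miR-191a-5p took 36.3% ± 2.79 of reads in the controls and 31.1% ± 4.49 after caffeine, and miR-16-5p 9.65% ± 0.219 and then 9.21% ± 0.310. miR-16-5p had a log2 difference of -0.07 ± 0.20 with a 95% interval of 0.714 to 1.28 on the fold scale. No tested member of the let-7 family (9), the miR-30 family (9), the miR-29 family (6), the miR-15/16 family (5) or the stress list (13) passed. For the let-7 family the median was -0.32 and 2 lay wholly below the controls, beside 6.56% of all tested. For the miR-29 family, which targets collagens, the median was 0.51 and 4 lay wholly above, beside 26% of all tested.

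Of 12 microRNAs often used as serum references none passed, but 11 had negative differences and the median was -0.39. Their median was -0.64 with median-of-ratios and -0.55 with quantile scaling, and 1 fell under each. Over all tested, 60.9% of differences were positive. The 6 tested regulators of drug-metabolizing enzymes held 2 that rose, miR-27b-3p and miR-378a-5p, beside 6.83% of all tested, and a median of -0.17. With median-of-ratios or quantile scaling 0 of them rose and 1 fell, and the median was -0.42 or -0.30. Of 17 platelet microRNAs, miR-199a-3p rose, beside 6.83% of all tested, and the median was -0.01. In pancreas and endocrine cells, miR-375-3p stood at 0.05 ± 0.36.

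The erythrocyte microRNA miR-451-5p read 2138, 2415 and 1324 FPKM in the controls and 2599, 2997 and 3559 FPKM after caffeine. Its difference, 0.66 ± 0.33, did not pass (adjusted p = 0.229 by limma), though no caffeine library lay within the controls. Its other arm, miR-451-3p, had 1.54 ± 0.49 and did not pass either (adjusted p = 0.0630 by limma). miR-144-5p had 0.27 ± 0.46. The haemolysis index, the log2 ratio of miR-451-5p to miR-23a-3p used to grade red-cell leakage into serum, was -7.53 ± 0.38 in the controls and -6.74 ± 0.35 after caffeine (SD, n = 3). The difference of 0.79 had an exact two-sided permutation p of 0.1, the smallest that 3 against 3 allows, and 0.15 adjusted over the 3 library measures tested. Over the erythrocyte list of 10, none rose, miR-92a-3p fell and the median was 0.04 (-0.21 with median-of-ratios scaling). The list took 12.3% to 14.7% of reads in the controls and 11.3% to 12.0% after caffeine. Most of that share was miR-16-5p, followed by miR-92a-3p, so it says little about miR-451. The part of red-cell RNA in the other changes was not tested beyond a fit with the index as a covariate, in which 5 microRNAs passed: miR-1-3p, miR-133a-3p, miR-122-5p, miR-199a-3p and miR-205. The index was -5.61 ± 0.74 after dextromethorphan alone and -5.99 ± 0.39 after both drugs, so it differed with treatment. In that fit, red-cell RNA and the treatment difference cannot be told apart for a call that was lost.

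In shares of the pool, the 25 that rose together took 5.13% ± 2.47 of reads in the controls and 15.0% ± 3.31 after caffeine, mostly miR-122-5p and miR-150-5p. The other 23 went from 1.15% ± 0.388 to 2.89% ± 0.195, and the 4 that fell from 3.04% ± 0.987 to 1.44% ± 0.333. The 10 most abundant microRNAs took 74.8% ± 1.12 and then 71.7% ± 1.75, an exact permutation p of 0.1. The median of all 366 differences was 0.19, and 60.9% were positive. It was -0.04 with median-of-ratios and -0.11 with quantile scaling. Under these scalings 12 rose and 7 fell, or 11 rose and 7 fell, in place of 25 and 4.

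The control ctrl5 was the highest control for 22 of the 25 that rose and the lowest for all 4 that fell, where over all tested it was the highest for 36.3% and the lowest for 39.3%. Without it, 30 rose and 6 fell. Calls were fewer without ctrl1 (5), ctrl3 (4), CAF4 (10), CAF5 (6) or CAF3 (17), and in the fit without ctrl3 the 4 that passed were miR-1-3p, miR-1b, miR-206-3p and miR-133a-3p. Libraries of the other groups enter through the shared spread: the count was 44 without DEX1, 15 without DEX3 and 18 without CAFDEX2. The other 25 microRNAs each lost the call in 3 to 16 of their 24 or 25 alternatives. Adjusted p-values lay between 0.04 and 0.05 for 15 of the 29. Unadjusted, 91 of 366 had a p under 0.05.

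Precision depended on level. Among the 122 least abundant tested microRNAs the median SE was 0.63 on the log2 scale and 2 rose, among the middle 122 it was 0.42 with 12 up and 2 down, and among the 122 most abundant 0.30 with 11 up and 2 down. The 113 microRNAs described but not tested had means of 78.1 FPKM or less. Of these, 9 lay wholly above the controls and 2 wholly below, with no test. The 5′ and 3′ arms of a hairpin offer a check on these values, since both come from 1 precursor but are counted apart. Both arms were tested for 102 hairpins, and 78 of them had differences of the same sign. Across hairpins Pearson's r was 0.63 and Spearman's rho 0.68, as a description, since arms share libraries.

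**Figure D4:**
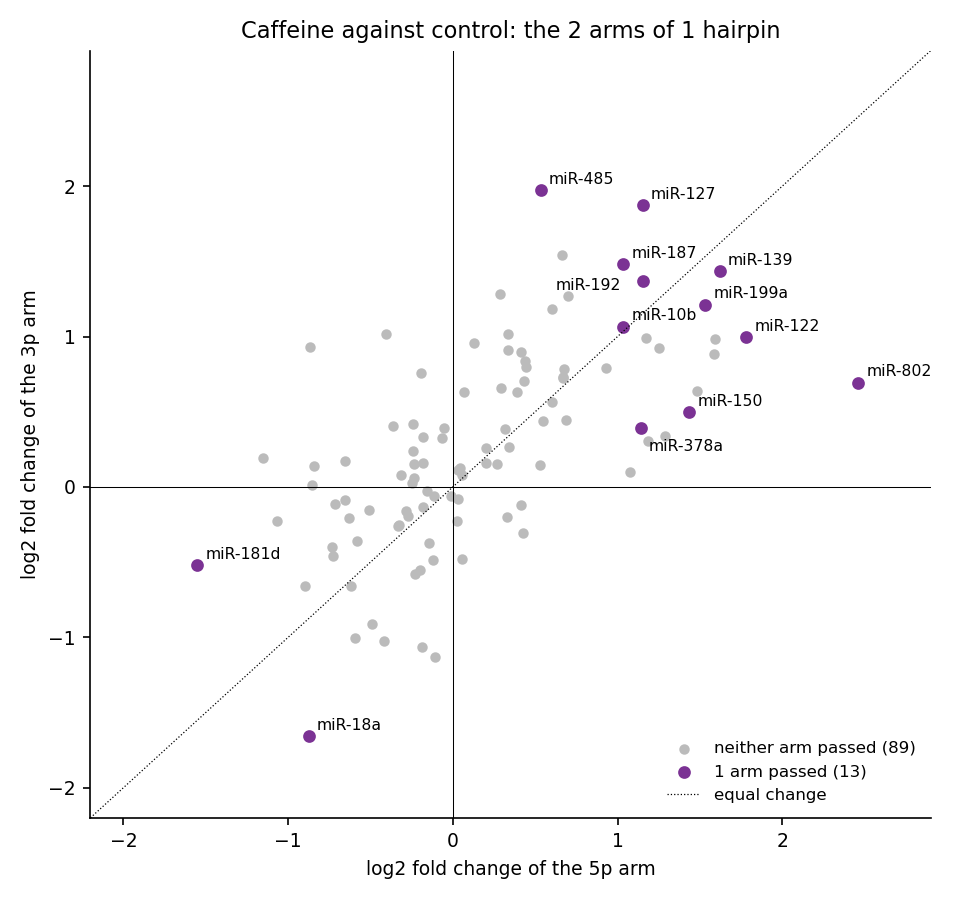
Log2 fold change, caffeine against control, of the 5p arm and of the 3p arm of 102 hairpins. The 13 hairpins with 1 arm that passed are named, and all 13 lie in the quadrants where both arms have the same sign. The dotted line marks equal change.

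In 13 hairpins 1 arm passed and in none both. All 13 partner arms had the same sign as the arm that passed, among them miR-139-3p at 1.43 ± 0.47 and miR-192-3p at 1.37 ± 0.44. The widest gap was at miR-802, with 2.46 for the 5p arm and 0.69 ± 0.89 for the 3p arm. Of 48 microRNAs that did not pass themselves but lay within 10 kb of 1 that did on the same strand, 42 shared its sign. The 13 partner arms are among these 48 and so are counted again. Many of the others lie in the Dlk1-Dio3 locus, so the 48 are not independent of each other. Over all tested, 60.9% of differences were positive. Of the 29, 7 overlap a microRNA annotated on the opposite strand, among them miR-1-3p with miR-3571 and miR-122-5p with miR-122b. The sources used here do not say whether counting used strand, and none of those 7 antisense names reached 3 libraries above 0.

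Caffeine was also given on top of dextromethorphan, a comparison that shares no library with the one above. There, 13 of 366 passed (3.55%), 1 higher and 12 lower, and the median of all tested was -0.24. Of the 25 microRNAs that rose after caffeine alone, 16 had a positive difference with dextromethorphan present, with a median of 0.14, where 30.9% of all tested were positive. All 4 that fell were again negative, with a median of -0.72. Without DEX1, 24 passed, and without DEX2 and DEX3 together none did by limma, with 56 at an unadjusted p under 0.05. Against DEX1 alone, 16 of the 25 were likewise positive, with a median of 0.44, where 43.2% of all tested were positive and their median was -0.14. miR-150-5p was the 1 that passed upward in both, with 663151, 1044430 and 824998 FPKM after dextromethorphan alone and 2137830, 2525060 and 1616750 FPKM after both drugs. Its difference there was 1.31 ± 0.31 (adjusted p = 0.0244 by limma). miR-146a-5p had 1.204 ± 0.327 there and an adjusted p of 0.0554, by the same test.

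**Figure D5:**
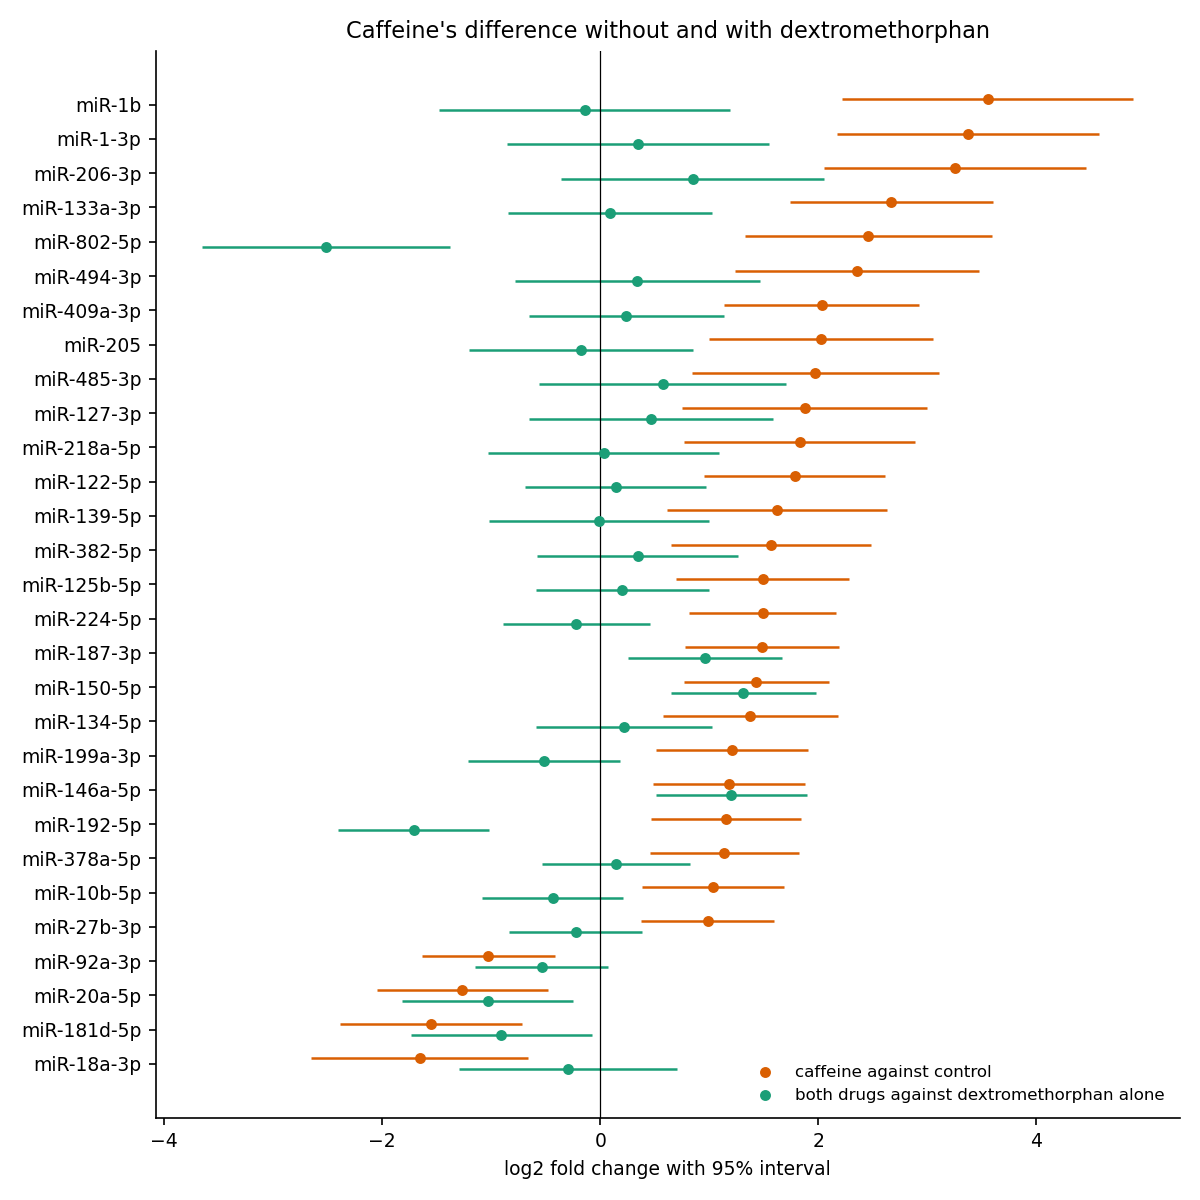
Log2 fold change with its 95% interval for the 29 microRNAs, for caffeine against control and for both drugs against dextromethorphan alone. miR-150-5p and miR-146a-5p have similar values in both, 1.43 and 1.31 for the first and 1.182 and 1.204 for the other, while miR-802-5p and miR-192-5p lie on opposite sides of 0.

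The difference between those 2 contrasts, the interaction, passed for 17 of 366 microRNAs (4.64%), all negative, that is, with a lower caffeine difference under dextromethorphan. Among them were 7 of the 29: miR-1-3p, miR-1b, miR-133a-3p, miR-192-5p, miR-199a-3p, miR-224-5p and miR-802-5p. The interaction contains the caffeine against control difference by which the 29 were picked, so it leans negative for those that rose. Its median was -1.64 among the 25 that rose and -0.39 over all tested. For miR-192-5p caffeine alone gave 1.15 and caffeine added to dextromethorphan -1.71 ± 0.32, and for miR-802-5p 2.46 and -2.51 ± 0.53. After dextromethorphan alone miR-192-5p read 336051, 694358 and 402118 FPKM and miR-802-5p 957, 1610 and 1061 FPKM, all above the caffeine libraries. Of the dextromethorphan libraries, DEX3 and DEX2 had the fewest reads of the series, 403913 and 443564. The interaction passed for 8 microRNAs without ctrl3, CAF3, DEX3 or CAFDEX6, for 10 without ctrl1, for 11 without CAF5 and for 38 without CAFDEX3.

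Set directly against dextromethorphan alone, caffeine alone differed in 9 of 366 microRNAs (2.46%), all lower after caffeine, and miR-192-5p was the 1 of the 29 among them, at -1.84. The others were epithelial microRNAs of the miR-200 family, miR-194-5p and miR-375-3p. The count was 27 without DEX1, 5 without CAF5, 3 without CAF4, DEX2 or DEX3, and 0 by limma when neither DEX2 nor DEX3 entered, with 32 at an unadjusted p under 0.05. The 4 muscle microRNAs had 1.24 to 1.94 in this comparison and did not pass. miR-122-5p had 0.14 (adjusted p = 0.915), and against control its values were 1.78 for caffeine, 1.64 for dextromethorphan and 1.78 for both drugs, 3 comparisons that share the control libraries.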

How the data were processed

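Small RNA was isolated from serum and sequenced with a kit that adds unique molecular indices, per the labels' protocols. Per the submitters' processing notes the tools included cutadapt 3.7, STAR 2.7.10a, featureCounts of Subread 2.0.1 and DESeq2 1.20.0, with build rn6; their settings, the use of strand and any collapsing of indices are not stated there. The authors deposited FPKM per mature microRNA, 836 rows for 752 names. Rows of one name were summed. Times length, FPKM sum to the same total in every column, so values are relative to reads on listed microRNAs. All values were multiples of 0.01 reads (tolerance 0.0001), which gave the library totals.

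The fit was limma 3.58.1 in R 4.3.3 on log2(FPKM + 40) with a mean-variance trend, 4 group means over all 12 libraries and 8 residual degrees of freedom, so fold changes of low microRNAs are understated. It was tested on simulated data. Two-sided p-values were adjusted over the 366 tested. Library measures used exact permutation of 3 against 3. Named were all microRNAs that passed. Further names came from the 10 most abundant, the most abundant of each list, and arms and neighbours within 10 kb of those that passed. Not all of these are given, and the choice among them was made with the values in view. Any other name was picked with its values in view. The members and lists were chosen with earlier results of these data known. Columns carry a group and a number that is not the labels' replicate number, and were used as libraries of their group. Alternatives covered scaling, filters, pseudocount, test, a haemolysis covariate and each library left out; leaving out 2 dextromethorphan libraries together was added after seeing the data.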

Additional observations from a re-analysis of the deposited data

Results flagged for a closer look

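For 7 of the 29 microRNAs that passed after caffeine alone, the caffeine difference itself differed with and without dextromethorphan, by the interaction term of the limma fit (Benjamini-Hochberg over 366). That term contains the caffeine against control difference by which the 29 were picked, which leans it below 0 for those that rose. The difference in log2 units, with dextromethorphan minus without, was -4.97 for miR-802-5p and -2.87 for miR-192-5p (adjusted p = 0.00145 for each). It was -3.70 for miR-1b and -2.58 for miR-133a-3p (adjusted p = 0.0259 for each). It was -3.03 for miR-1-3p, -1.73 for miR-199a-3p and -1.71 for miR-224-5p (adjusted p = 0.0415 for each). The libraries of dextromethorphan alone that enter this term had 403913 to 895792 reads, against 1304868 to 2625593 in the controls, and what depth contributed was not tested.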

How the results depend on the processing

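Results kept their direction in all 721 alternative fits of the 29 microRNAs, and 481 of these kept the call. Alternatives that change only the filter, the spread or the libraries of the other groups leave the log2 difference as it was. Direction could not turn in those, and the rest reuse the same libraries. miR-1-3p and miR-133a-3p passed in all 25 alternatives, miR-1b and miR-206-3p in 24. For caffeine against control, the 29 became 19 with median-of-ratios scaling, 18 with quantile normalization, 12 with no low-value filter, where 479 were tested, 9 without the mean-variance trend, 49 with voom on recovered counts, 65 with only the 2 groups fitted and 5 with the haemolysis covariate. Leaving out 1 library gave 4 (ctrl3) to 44 (DEX1), with 15 without DEX3 and 18 without CAFDEX2. For both drugs against dextromethorphan, the 13 became 9 to 24 with 1 library left out and 0 by limma when DEX2 and DEX3 were both left out (56 at an unadjusted p under 0.05). The 17 of the interaction became 8 with median-of-ratios, 7 with quantile, 11 without miR-191a-5p, 9 with no low-value filter, 7 with the haemolysis covariate and 8 to 38 with 1 library left out. The 9 of caffeine against dextromethorphan became 3 with only those groups fitted, 3 to 27 with 1 library left out, and 0 by limma with the haemolysis covariate (24 at an unadjusted p under 0.05) or with both DEX2 and DEX3 left out (32). The cause of these changes was not tested. The haemolysis index difference ranged from 0.62 to 1.01 and that of the 10 most abundant from -4.02 to -2.27 with 1 library left out. No paired analysis was possible because the columns' numbers are not the labels' replicate numbers. Depth limits the rarest calls: 8 of the 29 had a mean under 30 reads in the controls.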
